A study of Mus musculus with 4 samples.

Results

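The collagen chain genes were the protein-coding genes of the deposited table whose symbol is Col, a number, the letter a and a second number, such as Col1a1. This rule used the symbol and the gene class alone and found 44 of the 55573 genes in the table, 21900 of which were protein-coding. Each gene encodes an alpha chain, and chains assemble in threes into a collagen molecule. Chains of types IV, I and III had the highest footprint levels. No chain passed the test between the libraries labelled eIF5A-KO and WT, and the largest difference, of Col6a3, rested mostly on 1 library.

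Ribo-seq reads the short pieces of mRNA (footprints) that lie inside ribosomes and so survive RNase digestion. It was performed on primary myoblasts, the proliferating precursors of muscle fibres, from hind-limb muscle of 3-week-old mice. Cells were cultured to Day 2 in 10% fetal bovine serum with FGF at 10 µg/ml, and ribosomes were stopped with cycloheximide at 100 µg/ml. The eIF5A-KO group carried Pax7 CreERT2/+ with both eIF5A alleles floxed and was given tamoxifen. The study describes its WT controls in one place as Pax7 CreERT2/+ and in another as Pax7 +/+ with floxed eIF5A, so whether these WT cells carried the Cre is not certain. The groups had 2 libraries each, which the study calls duplicate experiments. As no label says that these came from separate cultures or animals, p-values measure only the spread between libraries, which may be technical.

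Cre is driven from the Pax7 gene, which marks muscle stem cells and myoblasts, so the deletion is limited to cells that have used this gene. Other cells of the culture keep eIF5A. Footprints on Eif5a were not lower with the KO label. Reads numbered 50 and 73 in WT against 130 and 114 with the KO label, and the scaled values, 34.9 and 65.2 RPKM (reads per kilobase of gene, divided by a library size) against 60.3 and 59.4 RPKM, overlapped. Their log2 difference was 0.32 ± 0.48 (SE), and limma gave an adjusted p of 0.839. The groups are therefore called WT and the KO-labelled libraries.

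Collagen chains share a repeat in which glycine comes back at the third residue of each triplet and many of the others are proline or 4-hydroxyproline, and the small glycine allows 3 chains to wind into a triple helix. Fibrillar collagens (types I, II, III, V, XI, XXIV and XXVII) build the tensile fibres of connective tissue. Type IV forms the sheet of basement membranes, the matrix around each muscle fibre and around vessels. Type VI forms beaded filaments beside the basement membrane, FACIT chains sit on the surface of fibrils, and types VIII and X form hexagonal networks. In muscle most fibrillar and type VI collagen is made by fibroblasts and fibro-adipogenic cells, while cultured myoblasts also make collagen. The translation factor eIF5A carries the modified residue hypusine and assists the ribosome at stretches that react slowly, of which consecutive prolines are the best known. This is why a proline-rich family is of interest in cells in which its gene is targeted.

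The windows below are shown because, of all windows of this length within an exon, they hold the most pairs of adjacent proline codons in 5 chains that the results turn on. Each is 45 bases of coding sequence within a single exon of the longest GENCODE vM21 coding transcript (GRCm38), read 5′ to 3′ on the coding strand, with proline codons (CCN) in capitals.
Col1a1: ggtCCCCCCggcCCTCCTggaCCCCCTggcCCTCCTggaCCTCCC
Col3a1: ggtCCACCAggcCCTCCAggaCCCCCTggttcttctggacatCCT
Col4a1: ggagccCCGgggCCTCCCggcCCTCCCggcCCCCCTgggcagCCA
Col4a2: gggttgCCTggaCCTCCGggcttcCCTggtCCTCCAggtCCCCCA
Col6a3: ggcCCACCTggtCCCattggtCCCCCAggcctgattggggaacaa

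These windows lie in exons and hold codons only. The Col1a1 window is at chr11:94950291-94950335 on the plus strand, in exon 48 of 51, and holds 5 proline pairs in 15 codons. The Col3a1 window is at chr1:45325360-45325404 on the plus strand, in exon 6 of 51, with 3 pairs. The type IV windows hold 3 pairs each, in exon 21 of 52 of Col4a1 at chr8:11235105-11235149 on the minus strand and in exon 25 of 48 of Col4a2 at chr8:11425477-11425521 on the plus strand. The Col6a3 window is at chr1:90788233-90788277 on the minus strand, in exon 26 of 44, and holds 2 pairs. Where the window goes on after a pair, the next codon is glycine (ggn), and no run in these windows is longer than a pair. Col4a2 and Col6a3 each have 1 run of 3 prolines elsewhere in the coding sequence.

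The libraries held 642429 to 704006 gene-assigned reads, of which 217651 to 460099 fell in protein-coding genes. Protein-coding genes took 41.5% and 33.9% of reads in WT and 65.4% and 59.2% in the KO-labelled libraries. The deposited values were scaled so that the typical gene has the same level in each library. The 44 collagen chains together received 9998 reads, 2295 and 1268 of them in WT (replicate 1, then replicate 2, as everywhere below) and 4192 and 2243 in the KO-labelled libraries. In bulk libraries more cells of a type and more RNA per cell cannot be told apart. Of the 44 chains, 13 had at least 100 reads over the 4 libraries, 5 had 21 to 99, 21 had 1 to 20 and 5 had 0.

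The chains with 0 reads were Col4a6, a basement membrane chain, Col6a4 and Col6a5 of type VI, Col9a1, a FACIT chain of cartilage, and Col10a1, the network chain of growth plate cartilage. A count of 0 allows up to 3 reads, or 2.25 per 1000000 protein-coding reads over the 4 libraries, so a low level of these chains was not detectable at this depth. A total of 18 chains had a mean RPKM of at least 1 and were tested. The other 26 had 0 to 21 reads each and were not tested. A chain could pass this filter through high values in either group.

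Levels of different chains were compared per kilobase of coding sequence. On this scale the order of the means over the 4 libraries, for the 13 chains with at least 100 reads, was Col4a1 (134), Col1a2 (120), Col4a2 (95.7), Col3a1 (92.8), Col1a1 (59.0), Col6a1 (51.2), Col5a2 (45.3), Col18a1 (31.1), Col6a3 (22.8), Col6a2 (22.5), Col5a1 (14.5), Col5a3 (10.7) and Col12a1 (5.44). Of these neighbours among the 13, a chain lay above the next in all 4 libraries only for Col3a1 over Col1a1 and for Col5a3 over Col12a1. The other 10 neighbouring pairs changed places in at least 1 library. Less-read chains fell between them, with Col8a1 at 11.2 and Col16a1 at 6.82. Col4a1, Col1a2, Col4a2 and Col3a1 were the highest 4 chains in every library, in an order that differed between libraries.

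**Figure D1:**
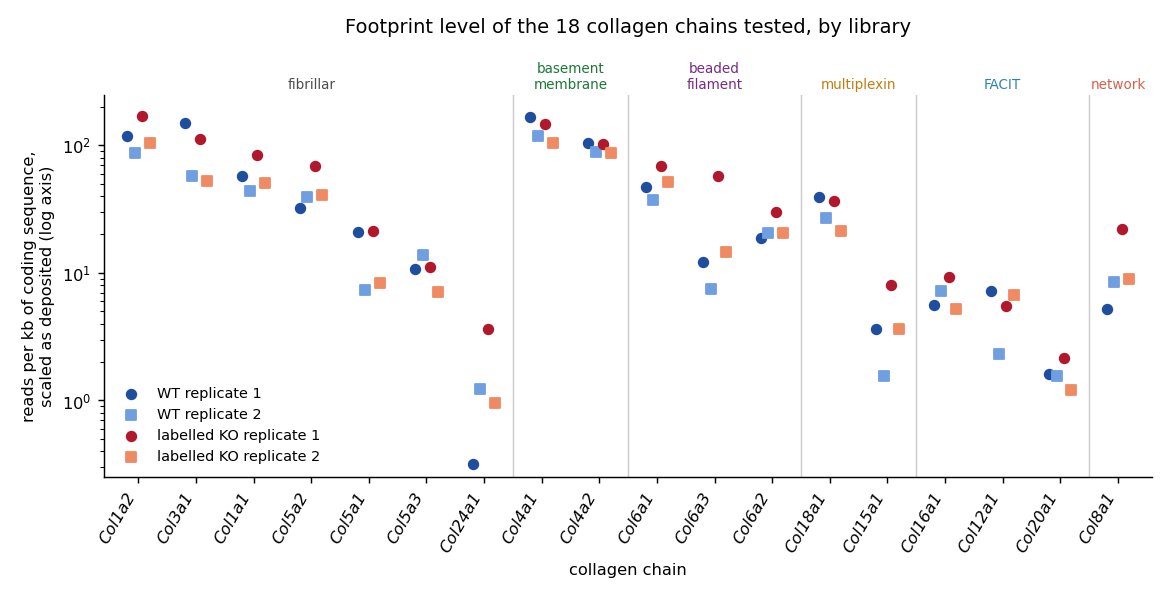
Reads per kilobase of coding sequence, scaled as deposited (log axis), for the 18 collagen chains tested, grouped by structural class on the horizontal axis; circles are replicate 1 and squares replicate 2, blue for WT and red for the KO-labelled libraries. Col4a1 and Col1a2 lead with means of 134 and 120, and circles lie above squares of the same colour for 11 of the 18 chains in both groups.

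Basement membrane chains took 36.1% (95% Wilson interval 34.2% to 38.1%) and 39.3% (36.6% to 42.0%) of collagen reads in WT. In the KO-labelled libraries they took 27.5% (26.1% to 28.8%) and 35.0% (33.1% to 37.0%), below both WT libraries, and the group means differed by -6.47 percentage points (-4.75 with Col6a3 left out of all collagen reads). The exact permutation test, two-sided, gave 0.33, the smallest value for 2 against 2 libraries. When a library was left out the difference ran from -10.2 percentage points, without KO-labelled replicate 2, to -2.70, without KO-labelled replicate 1. Intervals cover counting error only, since the reads carry no molecular identifiers. Nearly all of these reads were on Col4a1 and Col4a2, which encode the chains of the widespread type IV collagen. Col4a3, Col4a4 and Col4a5, the chains of kidney and other specialised basement membranes, had 5 to 7 reads each.

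Col4a1 (ENSMUSG00000031502, chr8:11198423-11312826, minus strand) had the most reads of all collagen chains, 504 and 281 in WT against 668 and 419 with the KO label. This was 112 and 79.9 RPKM in WT and 98.7 and 69.5 RPKM in the KO-labelled libraries. The groups overlapped, and replicate 1 was the higher in each. Its log2 difference, labelled KO minus WT, was -0.19 ± 0.48 (SE), its 95% interval ran from -1.36 to 0.98, and limma gave an adjusted p of 0.908.

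Col4a2 (ENSMUSG00000031503, chr8:11312805-11449287, plus strand) starts next to Col4a1 on the opposite strand, and the gene models overlap by 22 bases. It had 80.4 and 68.9 RPKM in WT and 79.0 and 67.9 RPKM in the KO-labelled libraries. Its log2 difference of -0.02 ± 0.43 (SE) was the closest to 0 of the 14 tested chains named by rule. Whether reads were counted by strand was not given in the sources used here, so reads in the shared bases are uncertain. Scaled to total reads the differences were 0.42 for Col4a1 and 0.58 for Col4a2, where the median of all genes moved to 0.47.

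Fibrillar chains took 45.7% (43.6% to 47.7%) and 41.6% (39.0% to 44.4%) of collagen reads in WT, and 44.9% (43.4% to 46.4%) and 42.4% (40.3% to 44.4%) in the KO-labelled libraries. The group means were 43.7% ± 2.85 and 43.6% ± 1.81 (SD, n = 2), closer to each other than the replicates of either group were. The 11 fibrillar chains included 7 that were tested.

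Col1a2 (ENSMUSG00000029661, chr6:4504814-4541544, plus strand) and Col1a1 (ENSMUSG00000001506, chr11:94936224-94953042, plus strand) encode the chains of type I collagen, the main collagen of tendon, bone and dermis. Col1a2 had 39.1 and 28.7 RPKM in WT and 56.3 and 34.6 RPKM in the KO-labelled libraries. Col1a1 had 38.4 and 29.1 RPKM in WT and 55.8 and 33.4 RPKM in the KO-labelled libraries. In both genes WT replicate 1 lay above KO-labelled replicate 2, so that the groups overlapped. The log2 differences were 0.39 ± 0.46 and 0.36 ± 0.46 (SE), and limma gave adjusted p of 0.792 and 0.809.

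Col3a1 (chr1:45311538-45349706, plus strand) encodes type III collagen, which mixes with type I in distensible tissue. It had 66.7 and 25.7 RPKM in WT and 50.2 and 23.5 RPKM in the KO-labelled libraries. The replicates of a group differed far more than the groups did, by 2.59-fold in WT and 2.14-fold in the KO-labelled libraries, and the log2 difference was -0.27 ± 0.64 (SE). This difference was 0.40 without WT replicate 1 and 0.27 without KO-labelled replicate 2, so its sign depended on the libraries used. Scaled to total reads it was 0.33, still below the median of all genes on that scale (0.47).

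Type V chains form the core on which type I fibrils grow. Col5a2 had 15.2 and 18.4 RPKM in WT and 32.1 and 19.2 RPKM in the KO-labelled libraries, and both latter values lay above both WT values, by a narrow margin for replicate 2. Its log2 difference was 0.55 ± 0.44 (SE), and limma gave an adjusted p of 0.720. Col5a1, its usual partner, had 13.7 and 4.75 RPKM in WT and 13.9 and 5.40 RPKM in the KO-labelled libraries. That split followed the replicate number and not the group, and its log2 difference of 0.09 ± 0.64 (SE) went to -0.02 when scaled to protein-coding reads. Col5a3 had 8.28 and 10.6 RPKM in WT and 8.58 and 5.45 RPKM in the KO-labelled libraries, a log2 difference of -0.40 ± 0.40 (SE) that was the lowest of the 18 chains and that was 0.15 when scaled to total reads, below the 0.47 of all genes. The remaining fibrillar chain tested was Col24a1, with 25 reads in all. Col2a1, Col11a1, Col11a2 and Col27a1 had 11 to 21 reads each and were not tested.

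Beaded filament chains, nearly all of type VI, took 8.63% (7.55% to 9.85%) and 9.46% (7.97% to 11.2%) of collagen reads in WT. In the KO-labelled libraries they took 18.8% (17.6% to 19.96%) and 13.2% (11.9% to 14.7%). Both KO-labelled libraries lay above both WT libraries, a difference of the group means of 6.96 percentage points. An exact permutation test of 2 against 2 libraries, two-sided, gave 0.33, the smallest p-value that this design allows. The difference fell to 1.73 percentage points when Col6a3 was left out of all collagen reads, an alternative chosen after the data were seen. When a library was left out the difference ran from 4.20 percentage points, without KO-labelled replicate 1, to 9.73, without KO-labelled replicate 2.

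**Figure D2:**
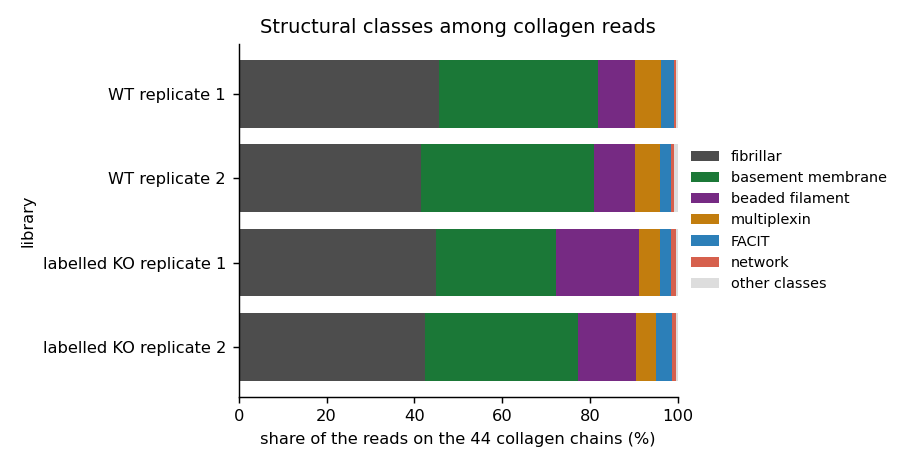
Share of the reads on the 44 collagen chains (%) held by each structural class, as stacked bars with 1 bar per library. The beaded filament class holds 8.63% and 9.46% in WT and 18.8% and 13.2% in the KO-labelled libraries, and the fibrillar class stays between 41.6% and 45.7%.

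Col6a3 (chr1:90765923-90843971, minus strand) encodes the long alpha 3 chain of type VI. Reads numbered 72 and 35 in WT against 509 and 117 with the KO label, or 9.98 and 6.21 RPKM against 46.9 and 12.1 RPKM. KO-labelled replicate 1 stood far above the other 3, which lay within 2-fold of each other, and the groups did not overlap. The log2 difference of 1.49 ± 0.68 (SE) was the largest among the chains, and its 95% interval ran from -0.18 to 3.17. In limma its p was 0.0720 before and 0.676 after adjustment. Without KO-labelled replicate 1 the log2 difference was 0.56. With voom (limma) on recovered reads the log2 difference was 1.57, with p of 0.00404 before and 0.222 after adjustment, so the chain passed no adjusted threshold. Over all alternatives the log2 difference of Col6a3 ranged from 0.56 to 2.43. The summed markers of fibroblasts, which make type VI collagen, were also highest in KO-labelled replicate 1, at 1.67% of protein-coding reads against 0.931% to 1.04% in the other 3 libraries, and their part in the Col6a3 difference was not tested.

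The other chains of the type VI molecule differed less between the groups. Col6a1 (chr10:76708792-76726168, minus strand) had 33.3 and 26.2 RPKM in WT and 48.3 and 35.9 RPKM in the KO-labelled libraries, with no overlap and a log2 difference of 0.48 ± 0.42 (SE). Col6a2, which neighbours Col6a1 at 85161 bases on the same strand, had 6.97 and 7.65 RPKM in WT and 11.3 and 7.58 RPKM in the KO-labelled libraries. Its groups overlapped and its log2 difference was 0.30 ± 0.39 (SE). The adjusted p-values of Col6a1 and Col6a2 in limma were 0.730 and 0.805. Col6a6 and Col28a1 had 2 and 5 reads.

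FACIT chains held 32 to 105 reads per library, 2.50% to 3.57% of collagen reads. Col12a1, which binds type I fibrils in tendon and muscle fascia, had 4.36 and 1.39 RPKM in WT and 3.33 and 4.07 RPKM in the KO-labelled libraries. WT replicate 2 stood apart with 10 reads against 40 to 50 in the other 3 libraries. The log2 difference was 0.39 ± 0.51 (SE) with all libraries and -0.19 without WT replicate 2. Col16a1, with 92 reads, and Col20a1, with 19, had log2 differences of 0.12 and 0.03.

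The network class was represented by Col8a1, a chain of vessel wall and cornea matrix. Reads numbered 7 and 9 in WT against 45 and 16 with the KO label, or 1.48 and 2.44 RPKM against 6.33 and 2.53 RPKM. The groups did not overlap, but WT replicate 2 and KO-labelled replicate 2 were close to equal. The log2 difference was 0.80 ± 0.51 (SE), and limma gave an adjusted p of 0.697. Its partner Col8a2 had 5 reads.

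Multiplexins are basement membrane chains with an interrupted helix. Col18a1, whose C-terminal fragment is endostatin, had 30.0 and 20.6 RPKM in WT and 27.8 and 16.0 RPKM in the KO-labelled libraries. Replicate 1 was again the higher in each group, and the log2 difference of -0.22 ± 0.47 (SE) was 0.36 when scaled to total reads, below the 0.47 of all genes. Col15a1 had 54 reads and a log2 difference of 0.81 ± 0.53 (SE). The anchoring fibril chain Col7a1, of the skin, had 12 reads, the transmembrane chains had 3 to 10 reads each, led by Col23a1, and Col26a1 had 4.

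None of the 18 chains tested was called at an adjusted p-value under 0.05 in limma, in either direction. Over all 11363 genes tested 0.0088% were called higher and 0.0968% lower, and 0 of the 9877 protein-coding genes among them. At an unadjusted p-value under 0.05 the chains gave 0 in either direction as well, against 2.86% of all genes higher and 4.46% lower. With voom on recovered reads 0 chains passed the adjusted threshold and 1, Col6a3, had an unadjusted p-value under 0.05, beside 79 genes and 11.1% of all genes tested in that fit. The groups did not overlap for 4 chains higher in the KO-labelled libraries (Col6a3, Col6a1, Col5a2 and Col8a1), or 4 of 18, beside 20.1% of all genes tested. No chain was lower without overlap, beside 20.3% of all genes tested.

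The log2 differences lay above 0 for 13 chains and below 0 for 5, from -0.40 to 1.49, with a median of 0.33, beside a median of 0.00 over all genes tested. One of the 13, Col24a1, passed the filter on low values only through the KO-labelled libraries, where 21 of its 25 reads were, and without it the split was 12 to 5 with a median of 0.30 (17 chains, chosen after the data were seen). With no filter 22 of the 39 chains with reads lay above 0 and 17 below, with a median of 0.03 beside 0.02 over all genes. When the filter was raised to 5 RPKM the split was 7 to 5, with a median of 0.20 beside 0.07. By class the medians were 0.36 for the 7 fibrillar chains (0.22 for the 6 without Col24a1), -0.11 for the 2 basement membrane chains, 0.48 for the 3 beaded filament chains, 0.12 for the 3 FACIT chains, 0.30 for the 2 multiplexins and 0.80 for the single network chain. With the libraries scaled to total reads all 18 chains lay above 0, with a median of 0.84 where that of all genes was 0.47. With the libraries scaled to protein-coding reads 11 lay above and 7 below, with a median of 0.22 where that of all genes was -0.09. Without KO-labelled replicate 1 the chains were split 9 above and 9 below, with a median of 0.02. The split was 17 to 1 without KO-labelled replicate 2 (median 0.63), 16 to 2 without WT replicate 1 (0.41) and 11 to 7 without WT replicate 2 (0.17).

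Replicate 1 exceeded replicate 2 in both groups for 11 of the 18 chains, or 61.1%, against 23.8% of all genes tested. The log2 differences between replicates in WT and in the KO-labelled libraries had Pearson's r of 0.04 over the 18 chains. Over all genes tested r was 0.06. KO-labelled replicate 1 exceeded its replicate for 17 of 18 chains, and WT replicate 1 for 12 of 18. The summed share of protein-coding reads showed the same split. All 44 chains took 0.853% (0.819% to 0.888%) and 0.583% (0.551% to 0.615%) of protein-coding reads in WT and 0.911% (0.884% to 0.939%) and 0.582% (0.559% to 0.607%) in the KO-labelled libraries. The group means were 0.718% ± 0.191 and 0.747% ± 0.232 (SD, n = 2), so that on this denominator the difference between groups was smaller than the SD of either. Of all gene-assigned reads they took 0.354% and 0.197% in WT and 0.595% and 0.345% in the KO-labelled libraries. That difference of the means, 0.195 percentage points, exceeded the SDs of 0.111 and 0.177, but WT replicate 1 lay above KO-labelled replicate 2.

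**Figure D3:**
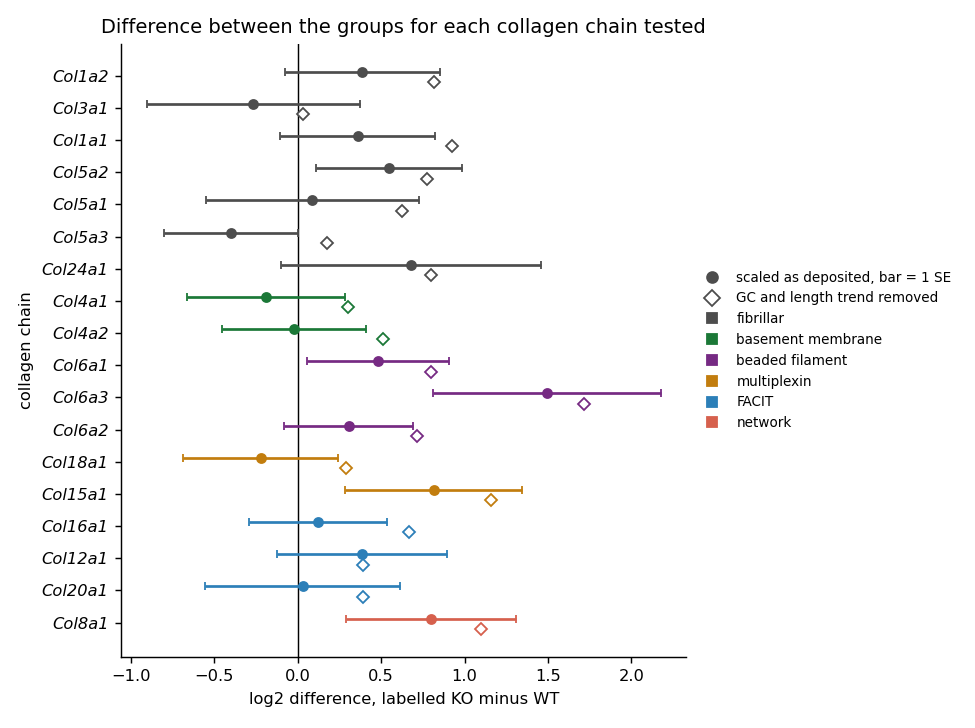
Log2 difference, labelled KO minus WT, of the 18 collagen chains tested (vertical axis), coloured by class; filled circles with bars of 1 SE use the deposited scaling and open diamonds use values from which each library's trend on coding GC content and coding length was removed. Circles run from -0.40 to 1.49 with 13 above 0, and all 18 diamonds lie above 0, with a median of 0.69 where that of all protein-coding genes tested was 0.04.

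Collagen coding sequences are rich in G and C, since glycine and proline codons begin with GG and CC. The GC content of the 18 chains tested ran from 49.0% to 63.0% with a median of 58.9%, against 53.2% for all protein-coding genes tested. In these libraries the log2 difference of protein-coding genes fell with GC content, from a median of 0.38 in the lowest of 10 equal bins of GC content to -0.48 in the highest. Of the 18 chains 17 lay above the median of their own bin, Col3a1 being the exception, at a median distance of 0.58, while by construction 50.0% of all genes do.

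After each library's trend on coding GC content and coding length was removed, all 18 chains lay above 0, from 0.03 for Col3a1 to 1.71 for Col6a3, with a median of 0.69. The median of all protein-coding genes in this fit was 0.04, and 52.9% of them lay above 0. Class medians were then 0.77 for fibrillar, 0.41 for basement membrane, 0.80 for beaded filament and 0.39 for FACIT chains. Even so 0 of 18 chains passed the adjusted threshold in limma, with a lowest adjusted p-value of 0.678, and 3 had an unadjusted p-value under 0.05 (Col6a3, Col15a1 and Col1a1), beside 0 genes called and 7.24% of all genes under 0.05 unadjusted in that fit. When a library was then left out, an alternative chosen after the data were seen, the chains above 0 numbered 15 of 18 without KO-labelled replicate 1, with a median of 0.43, and 17 or 18 without any other library, with medians of 0.46 to 1.01. The chains called numbered 0 each time.

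**Figure D4:**
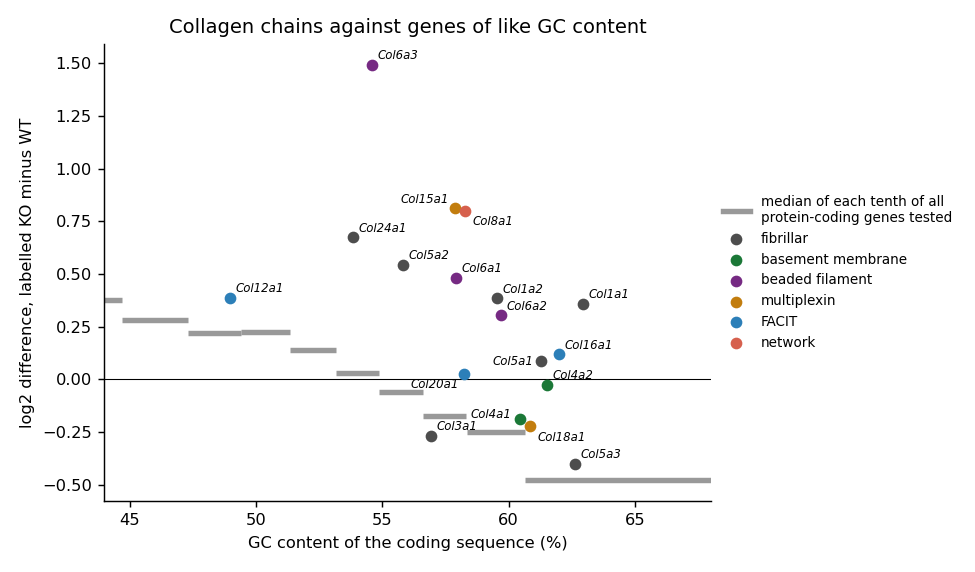
Log2 difference, labelled KO minus WT, against the GC content of the coding sequence (%) for the 18 collagen chains tested, coloured by class, with grey lines for the median of each of 10 equal bins of the protein-coding genes tested; the horizontal axis is drawn from 44% to 68%, and the outer grey lines run on beyond it. The grey medians fall from 0.38 to -0.48, and 17 of the 18 chains lie above the grey line of their own bin.

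Ratios of partner chains within a library do not depend on how the libraries were scaled. Type I collagen contains the alpha 1 and alpha 2 chains in a ratio of 2 to 1. The ratio of Col1a1 to Col1a2 footprints per kilobase of coding sequence was 0.490 and 0.506 in WT and 0.494 and 0.482 in the KO-labelled libraries. The treatment of reads with multiple matches was not given, and the repeats of different chains resemble each other. This ratio was the most constant of the 6 ratios examined, with a log2 difference between groups of -0.03 and 95% counting intervals that spanned 0.387 to 0.657 over the 4 libraries. Per kilobase of deposited gene length it was 0.966 to 1.01, because the deposited length of Col1a2 (12426 bases) is far longer than its coding sequence (4116 bases), while that of Col1a1 is 6563 against 4359 bases. The level of this ratio therefore depends on the length used, and its constancy across the libraries does not.

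Type IV molecules of the widespread kind contain Col4a1 and Col4a2 chains in a ratio of 2 to 1. The footprint ratio of Col4a1 to Col4a2 was 1.61 (1.39 to 1.85) and 1.34 (1.12 to 1.60) in WT and 1.44 (1.28 to 1.62) and 1.18 (1.02 to 1.36) in the KO-labelled libraries. The intervals of all 4 libraries lay above 1 on coding length, and the groups overlapped. Per kilobase of deposited gene length the intervals of WT replicate 2 (0.967 to 1.39) and KO-labelled replicate 2 (0.887 to 1.18) included 1.

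The ratio of Col6a1 to Col6a2 was 2.54 and 1.82 in WT and 2.28 and 2.51 in the KO-labelled libraries, with overlap. By contrast the ratio of Col6a3 to Col6a1 was 0.255 (0.184 to 0.353) and 0.202 (0.128 to 0.315) in WT, and 0.827 (0.700 to 0.982) and 0.288 (0.222 to 0.373) in the KO-labelled libraries. The interval of KO-labelled replicate 1 lay clear of the other 3, whose intervals overlapped each other. The log2 difference of the group means was 1.10, and without that library it was 0.34.

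The ratio of Col5a1 to Col5a2 was 0.648 (0.466 to 0.897) in WT replicate 1 and 0.186 (0.107 to 0.310) in WT replicate 2, and 0.312 and 0.202 in the KO-labelled libraries. The ratio of Col3a1 to Col1a1 was 2.58 (2.13 to 3.13) in WT replicate 1 and 1.31 (0.990 to 1.75) in WT replicate 2, and 1.34 and 1.04 in the KO-labelled libraries. WT replicate 1 stood apart in both. For the 6 ratios the exact permutation test, two-sided, gave p-values of 0.33 to 1, and 2 against 2 libraries cannot give less than 0.33.

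**Figure D5:**
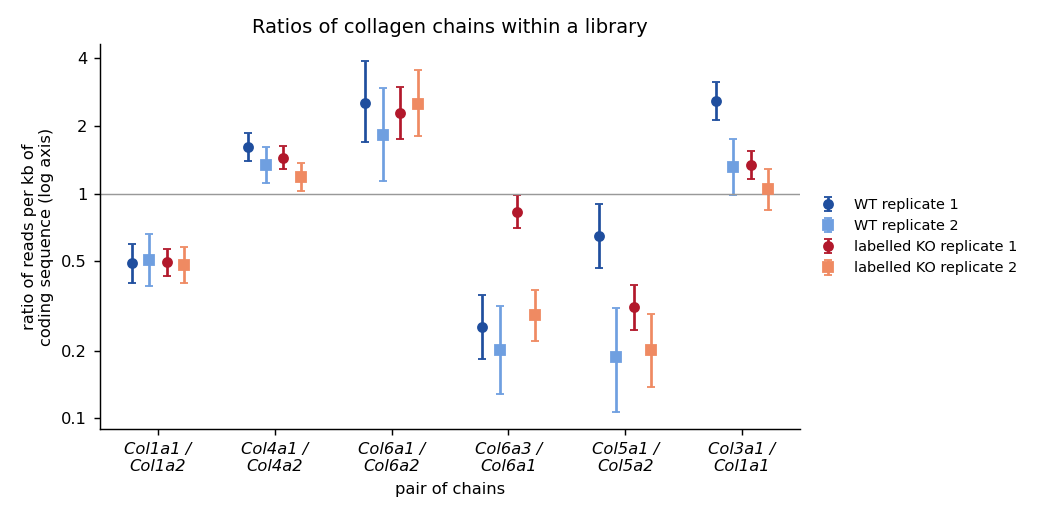
Ratio of reads per kilobase of coding sequence (log axis) for 6 pairs of collagen chains in each of the 4 libraries, with 95% intervals from counting error only. Col1a1 to Col1a2 stays between 0.482 and 0.506, and Col6a3 to Col6a1 reaches 0.827 in KO-labelled replicate 1 against 0.202 to 0.288 in the other 3.

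Proline made up a median of 16.2% of the residues of the 44 chains, from 4.50% for Col6a6 to 23.5% for Col4a5, against a median of 5.26% over 21630 protein-coding genes with a coding sequence. Over the codons of all 44 chains 14.1% were proline codons, of which 40.8% were CCT, 33.2% CCA, 19.7% CCC and 6.27% CCG. In other protein-coding genes 6.04% of codons were proline codons, with 30.8% CCT, 29.3% CCA, 29.7% CCC and 10.3% CCG.

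Pairs of consecutive prolines numbered 6 to 74 per chain, with a median of 29, against a median of 1 over all protein-coding genes. Nearly all pairs of the leading chains followed a glycine. In Col1a1 46 glycine-proline-proline triplets accounted for 46 of the 47 pairs, in Col3a1 41 triplets stood beside 42 pairs, and in Col4a1 41 triplets beside 43 pairs. In the windows above no run goes past 2 prolines. A run of at least 3 prolines occurred in 15 of the 44 chains, the longest being 4, in Col15a1 and Col18a1, against 4317 of all 21630 protein-coding genes, whose coding sequences are shorter (median of 1185 against 4616 bases).

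The 11 tested chains with at least 15% proline, among them those of types I, III, IV and V, had a median log2 difference of 0.09, from -0.40 to 0.80. The 5 with under 10% (Col6a1, Col6a2, Col6a3, Col12a1 and Col20a1) had a median of 0.39, from 0.03 to 1.49. The remaining pair, Col15a1 and Col24a1, had 0.81 and 0.68. Across the 18 chains, which are not independent replicates and share the same 4 libraries, Spearman's rho was -0.32 between the proline share and the log2 difference, -0.49 between the number of proline pairs and the log2 difference, and -0.59 between GC content and the log2 difference. After the GC and length trend was removed these were -0.17, -0.43 and -0.22. Across the 9843 protein-coding genes tested the values were -0.26 for the proline share, -0.20 for the number of pairs and -0.36 for GC content.

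Collagen chains with at least 20 proline pairs had a median log2 difference of 0.12 (13 chains), and the 283 other protein-coding genes with that many pairs had a median of -0.31. Once the GC and length trend was removed these medians were 0.62 and -0.04. RPKM over a whole gene give no position within it, so a build-up of ribosomes at proline pairs could not be examined, and with no RNA-seq values used here footprints per mRNA were not measured.

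Genes that modify, export, process and bind collagen were counted from lists. Of all genes tested 2.86% were higher and 4.46% lower at an unadjusted p-value under 0.05 and 50.0% lay above 0, and the counts below are read beside these. The maturation list holds the enzymes and chaperones of the endoplasmic reticulum that hydroxylate, glycosylate and fold the chains. Of its 18 members 17 were tested, 0 passed at an unadjusted p-value under 0.05, 13 had a log2 difference above 0, and the median was 0.29. P4hb, the beta subunit of prolyl 4-hydroxylase and a protein disulfide isomerase, had 110 and 105 RPKM in WT and 224 and 130 RPKM in the KO-labelled libraries. Serpinh1, the collagen chaperone HSP47, had 158 and 125 RPKM in WT and 232 and 112 RPKM in the KO-labelled libraries. In both genes KO-labelled replicate 1 was the highest of the 4, as for 8 of the 14 tested collagen chains named by rule.

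The export list holds the COPII coat that carries procollagen out of the endoplasmic reticulum and its cargo receptors. Of 12 members 11 were tested, 0 passed at an unadjusted p-value under 0.05, and the median was 0.44. The coat proteins Sec31a and Sar1a had the most reads, with log2 differences of 0.44 ± 0.39 and 0.52 ± 0.48 (SE). The processing and crosslinking list holds the proteases that trim procollagen and the lysyl oxidases. Of 13 members 11 were tested, 1 (Loxl3) was higher at an unadjusted p-value under 0.05 but under 2-fold, and the median was 0.02. The lysyl oxidases Loxl1 and Lox had the most reads, with log2 differences of -0.45 ± 0.41 and 0.11 ± 0.42 (SE).

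The list of collagen receptors and turnover genes had 14 of 15 members tested and a median of 0.21. Itga2, the alpha 2 subunit of a collagen-binding integrin, had 3.49 and 7.14 RPKM in WT and 20.2 and 11.5 RPKM in the KO-labelled libraries, a log2 difference of 1.43 ± 0.49 (SE). Ddr1, a collagen-activated receptor kinase, had 10.4 and 6.22 RPKM in WT and 2.54 and 3.63 RPKM in the KO-labelled libraries, a log2 difference of -1.17 ± 0.42 (SE). The groups did not overlap for either gene. The unadjusted p-values were 0.0278 and 0.0316, and limma gave adjusted p of 0.668 and 0.672. The most read members were Timp1, a metalloproteinase inhibitor, with a log2 difference of 0.81 ± 0.78 (SE), and Itgb1, the partner of Itga2, with 1.07 ± 0.51 (SE).

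Markers of the cells that such a culture can hold were counted in each library. Myod1, the defining transcription factor of myoblasts, was read 157 and 103 times in WT against 82 and 120 with the KO label. Scaled, this was 140 and 117 RPKM against 48.6 and 79.8 RPKM, without overlap, a log2 difference of -1.03 ± 0.48 (SE). Itga7, the alpha 7 integrin subunit and the next most read marker, had 22.8 and 12.1 RPKM in WT and 29.7 and 8.87 RPKM in the KO-labelled libraries, a log2 difference of -0.02. All 11 myoblast markers tested had a log2 difference below 0, with a median of -1.27, and 6 of them (Chrna1, Chrnb1, Des, Myf5, Myog and Pax7) were at least 2-fold lower with an unadjusted p-value under 0.05, beside 4.29% of all genes tested, while 0 passed the adjusted threshold in limma. Of the 11 markers 0 were higher and 8 lower without overlap, beside 20.1% and 20.3% of all genes tested. Myf5, with 8 and 4 reads in WT against 2 and 0, passed the filter on low values only through WT. Reads on Myog numbered 82 and 3 in WT against 1 and 2 with the KO label, WT replicate 1 standing apart, so its difference and part of the summed level of that library rest on 1 library. The summed myoblast markers took 0.235% and 0.142% of protein-coding reads in WT and 0.0911% and 0.0821% in the KO-labelled libraries.

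The 20 fibroblast markers, none at 0 in all libraries, took 0.933% and 0.931% in WT and 1.67% and 1.04% in the KO-labelled libraries, with a median log2 difference of 0.51 over 17 tested and Postn the 1 member past the 2-fold and unadjusted criterion upwards, beside 2.67% of all genes tested. Dcn, decorin, which binds collagen fibrils, had 239.5 and 126 RPKM in WT and 459.9 and 171 RPKM in the KO-labelled libraries, and Vim had 223 and 345 RPKM in WT and 407 and 382 RPKM in the KO-labelled libraries. Their log2 differences were 0.69 ± 0.69 and 0.51 ± 0.53 (SE). Of the 17 markers tested 7 were higher and 2 (Fbln1 and Thy1) lower without overlap, beside 20.1% and 20.3% of all genes tested, with log2 differences of -0.98 and -0.36 for the lower ones. KO-labelled replicate 1 was thus the highest for summed fibroblast markers, for collagen reads and for Col6a3. Much of the sum lay on 2 genes. Dcn held 843 of 2510 and 346 of 2027 reads in WT, and 2435 of 7678 and 807 of 4003 in the KO-labelled libraries. Vim held 639 and 770 of these reads in WT, and 1751 and 1464 in the KO-labelled libraries. The part of fibroblasts in the collagen values was not tested.

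Endothelial markers, led by Cdh5 and Cldn5, took 0.235% and 0.271% in WT and 0.279% and 0.279% in the KO-labelled libraries, with a median of 0.35. Of 11 tested 9 had a log2 difference above 0. Without overlap 5 were higher and 1 was lower, beside 20.1% and 20.3% of all genes tested. Kdr was at least 2-fold higher and Robo4 at least 2-fold lower at an unadjusted p-value under 0.05. Mural markers, led by Pdgfrb and Acta2 and with Tagln at 0, took 0.146% and 0.111% against 0.0902% and 0.0927%, with a median of -0.59. Of 7 tested 1 was higher and 4 were lower without overlap, beside 20.1% and 20.3% of all genes tested. Tenocyte markers, led by Egr1 and Thbs4, took 0.345% and 0.266% in WT and 0.270% and 0.257% in the KO-labelled libraries, with a median log2 difference of 0.58 over 6 tested. Egr1 held 671 of 928 and 382 of 579 of these reads in WT, and 551 of 1242 and 526 of 989 in the KO-labelled libraries. The summed share therefore followed this gene in large part, while Thbs4 had 118 and 116 RPKM in WT against 215 and 152 RPKM. Tnmd was past the same criterion upwards, 3 members (Tnmd, Fmod and Thbs4) were higher without overlap, beside 20.1% of all genes tested, and 2 were lower without overlap, beside 20.3%. The lower members were Egr1, with a log2 difference of -0.59, and Scx, with 8 and 1 reads against 0 and 0. Scx passed the filter on low values only through WT. Mkx, with 2 and 1 reads in WT against 2 and 9, passed it only through the KO-labelled libraries. Schwann cell markers, led by Pmp22 and Ngfr, took 0.0345% to 0.0665% with a median of -0.06. Immune markers, led by Cd14 and Cd68, took 0.0193% to 0.0250% with a median of 0.05, Itgam was at 0, and Adgre1 was past the criterion upwards and Lyz2 downwards.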

How the data were processed

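Ribo-seq libraries were made by the authors from RNase I digests on size-exclusion resin and sequenced as single-end reads. Low-quality, adapter, rRNA and tRNA reads were removed, and the rest were aligned with TopHat2 to the mouse genome (mm10, that is GRCm38) and gene counts were taken with HTSeq on Ensembl models. How multiple matches and strand were treated, and any tool versions, were not given in the sources used here. The labels and the design text differ on how long cells stood in cycloheximide.

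The deposited values were RPKM beside a gene length. The library sizes they imply were 602863 and 471136 in WT and 906990 and 807705 in the KO-labelled libraries, which are not the gene-assigned reads. This is like scaling with a size factor of the median-of-ratios kind, which the Ribo-seq methods of the paper do not name. RPKM times length gave whole reads (within 0.01) for 100.0% of values. All value columns belong to the 4 samples (0 to others).

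The members and lists were chosen with earlier results of these data known. Named were all chains of types I, III, IV (a1, a2), V and VI (a1 to a3), chains with at least 100 reads, the most read chain of each class, and from each list the 2 most read genes and those past 2-fold at an unadjusted p-value under 0.05. limma 3.58.1 (R 4.3.3, lmFit and eBayes with trend, group as the only term, two-sided) was fitted to log2(RPKM + 1) of the 11363 genes whose mean RPKM reached 1, with Benjamini-Hochberg adjustment over all of them and a threshold of 0.05. Log2 differences on this scale understate the change of low genes. The fit was tested on simulated data, where it called some unchanged genes with few reads and missed changed genes when replicates varied beyond counting error. Coding length, GC content and proline content came from each gene's longest GENCODE vM21 coding sequence, where 99.7% of identifiers were found. Ratios and shares used recovered reads, exact permutation tests (scipy 1.17.1) and Wilson or binomial 95% intervals. Depth was 642429 to 704006 reads per library. The floor of 3 reads equals 6.52 to 13.8 per 1000000 protein-coding reads in a library. Alternatives were a pseudocount of 0.1, no filter, a mean RPKM of at least 5, scaling to total or protein-coding reads, a replicate block, voom, removal of the GC and length trend (splines with 4 df) with and without the block, and leaving out each library.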

Additional observations from a re-analysis of the deposited data

How the results depend on the processing

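With 2 libraries per group and at least 100 reads on 13 of 44 chains, depth limited what could be seen. The fit called 0 of the collagen chains at an adjusted p-value under 0.05 in limma with all settings tried, and in every setting fewer than 4 chains reached an unadjusted p-value under 0.05. Chains past 2-fold at an unadjusted p-value under 0.05 numbered 0 in the main setting, 2 when scaled to total reads, 1 with voom, 2 without the GC and length trend, and 0 to 1 when a library was left out (Col6a3, without KO-labelled replicate 2). The shares of all genes past it were 6.96%, 15.3%, 10.8%, 6.12% and 3.71% to 12.8%. Over all genes 12 passed the adjusted threshold in the main setting, 79 with voom and 0 to 12 in the others. The causes of the changes below were not tested.

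Chains higher without overlap numbered 4, and 8 with no filter, 12 when scaled to total reads and 4 to 12 when a library was left out, beside 20.1%, 15.3%, 41.4% and 31.7% to 35.9% of all genes. Chains lower without overlap numbered 0, and 3 with no filter, 1 when scaled to protein-coding reads and 0 to 7 when a library was left out, the 7 without KO-labelled replicate 1, beside 20.3%, 14.7%, 23.4% and 30.4% to 39.4% of all genes. The fibrillar median of 0.36 was 0.96 when scaled to total reads, 0.77 without the GC and length trend, and -0.0025 to 0.72 when a library was left out. The basement membrane median of -0.11 was 0.50 and 0.41 in the same settings and -0.29 to 0.07 when a library was left out. The beaded filament median of 0.48 was 0.27 to 0.69 when a library was left out. The FACIT median of 0.12 was -0.21 to 0.27, the lowest without KO-labelled replicate 1. The median of all chains was 0.02 to 0.63 when a library was left out, and 0.43 to 1.01 when this was done with the GC and length trend removed (chosen after seeing the data).

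Signs turned as follows. When scaled to total reads the log2 difference was 0.33 for Col3a1, 0.42 for Col4a1, 0.58 for Col4a2, 0.15 for Col5a3 and 0.36 for Col18a1. When scaled to protein-coding reads it was -0.017 for Col5a1. With the GC and length trend removed it was 0.029 for Col3a1, 0.30 for Col4a1, 0.51 for Col4a2, 0.17 for Col5a3 and 0.29 for Col18a1. When a library was left out it ran from -0.0025 to 0.72 for Col1a1, -0.94 to 0.40 for Col3a1, -0.44 to 0.060 for Col4a1, -0.13 to 0.086 for Col4a2, -0.59 to 0.76 for Col5a1, -0.19 to 0.97 for Col12a1 and -0.60 to 0.16 for Col18a1. With no turn of sign it ran from 0.044 to 0.73 for Col1a2, 0.19 to 0.90 for Col5a2 and -0.68 to -0.11 for Col5a3. Likewise it ran from 0.27 to 0.69 for Col6a1, 0.048 to 0.56 for Col6a2 and 0.27 to 1.33 for Col8a1. Each of these positive ranges was lowest without KO-labelled replicate 1.

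Without Col6a3 (chosen after seeing the data) the beaded filament share of collagen reads differed by 1.73 percentage points and the fibrillar share by 2.92, and the basement membrane share by -4.75 (-6.47 with it). Per kilobase of deposited gene length the mean log2 ratio was -0.017 for Col1a1 to Col1a2 (-1.02 per coding kilobase), 0.26 for Col4a1 to Col4a2 (0.47), 2.09 for Col6a1 to Col6a2 (1.18) and -0.010 for Col3a1 to Col1a1 (0.56). Spearman's rho of proline share and log2 difference was -0.17 with the GC and length trend removed.

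The groups share replicate numbers 1 and 2, which no label ties to an animal or day. Deviations of same-numbered libraries had Pearson's r of 0.06 over all genes tested, so the numbers were not taken to pair the samples. With the replicate block Col6a3 was the 1 chain past 2-fold at an unadjusted p-value under 0.05 in limma, beside 7.24% of all genes tested. With the block but without the GC and length trend there were 2, beside 7.41%. The fibrillar and basement membrane medians were then 0.77 and 0.41. In the same setting Col3a1, Col4a1, Col4a2, Col5a3 and Col18a1 had log2 differences of 0.029, 0.30, 0.51, 0.17 and 0.29. The block changed no call at the adjusted threshold among the chains.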
